A study of Mus musculus with 192 samples.

Results

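Cholesterol synthesis and sterol regulation were followed through 34 genes in mouse bone marrow-derived dendritic cells, which are antigen-presenting cells grown from marrow with the growth factor GM-CSF. The genes were listed by their known roles, and their rows were read in all 64 groups of the study. Of the 34, 33 were found under their own symbol and Msmo1 under its older symbol Sc4mol, among 23481 genes in the deposited table. The list holds 8 genes of the mevalonate steps, 11 genes of the later sterol steps, 5 regulators, 3 fatty acid synthesis genes, 3 efflux genes, 1 gene of uptake, 2 genes of sterol transport and Ch25h. Counts sufficed to test 24 of the 34, among 4720 genes tested. The other 10, which are Acat2, Mvk, Ggps1, Lss, Tm7sf2, Nsdhl, Hsd17b7, Dhcr7, Srebf2 and Stard4, did not pass the filter on low counts and were left out of the main test.

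The cells came from female C57BL/6J mice aged 6 to 8 weeks, and every group was harvested after 6 hours. Groups differed only in the ligands of innate immune receptors added: PAM, LPS, HMW, Zymosan (depleted zymosan by its label), SeV, cGAMP (3',3'-cGAMP) and CpGB. Each ligand was given alone, in all 21 pairs and in all 35 triplets, and Ctrl received none, with 3 libraries in each of the 64 groups. The labels give no doses and do not tie libraries to separate animals or cultures, so p-values measure the spread between these libraries, which may be technical.

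Cells make cholesterol from acetyl-CoA through mevalonate, isoprenoids, squalene and a series of sterols. When membranes run short of sterol, the carrier protein SCAP brings the transcription factors SREBP1 and SREBP2 to be cleaved and they switch on the synthesis genes, while INSIG1 holds them back when sterol is plentiful. Excess cholesterol leaves through the transporters ABCA1 and ABCG1, targets of the oxysterol receptor LXR, and macrophages and dendritic cells make the oxysterol 25-hydroxycholesterol with Ch25h, an interferon-inducible enzyme whose product holds back SREBP cleavage.

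The measurement was a count of unique molecular identifiers (UMIs), each standing for 1 captured transcript, and levels are given as CPM, the count of a gene scaled to a common library total after TMM normalization. Libraries held 46564 to 610234 UMIs, with a median of 171616, and the members held 0.417% of all UMIs. Ctrl was the shallowest group, with a mean of 73431 ± 14389 (SD, n = 3) UMIs. The 7 dendritic cell markers were present and summed to 5043 to 7103 CPM over the groups. The 5 macrophage markers, all with counts, summed to 5740 to 9938 CPM and were highest in Ctrl, with 223027 of their 248908 counts in Lyz2. Neutrophil markers summed to 460 to 918 CPM, with Ly6g not matched to a row. Lymphocyte markers reached at most 6.58 CPM and were at 0 in Ctrl, with no count of Cd3e in any library, and erythroid and stromal markers reached at most 5.41 CPM. The part of these markers' cells in the results was not tested, and in these bulk libraries fewer cells of a type and less RNA per cell cannot be told apart.

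Most of the tested synthesis genes were lower, on average over combinations, where cGAMP or LPS was part of the stimulus. Each ligand was compared over 22 matched backgrounds: the 22 groups that held it, against the 22 groups that were the same but for lacking it, or 66 libraries on each side. A member was called here at an adjusted p under 0.05 with a log2 difference of at least 0.5 (edgeR quasi-likelihood test, Benjamini-Hochberg adjustment over all genes tested). With cGAMP, 9 of the 11 tested synthesis genes fell, with a median log2 difference of -0.89 over the 11, against -0.05 over all genes. With LPS, 8 of the 11 fell and the median was -0.68, against -0.02 over all genes. Counting every tested member, 13 of 24 fell with cGAMP (54.2%) where 10.3% of all genes did, and 1 rose where 14.3% of all genes did. With LPS 12 of 24 fell (50.0%), against 11% of all genes, and 3 rose, against 14.9%.

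**Figure D1:**
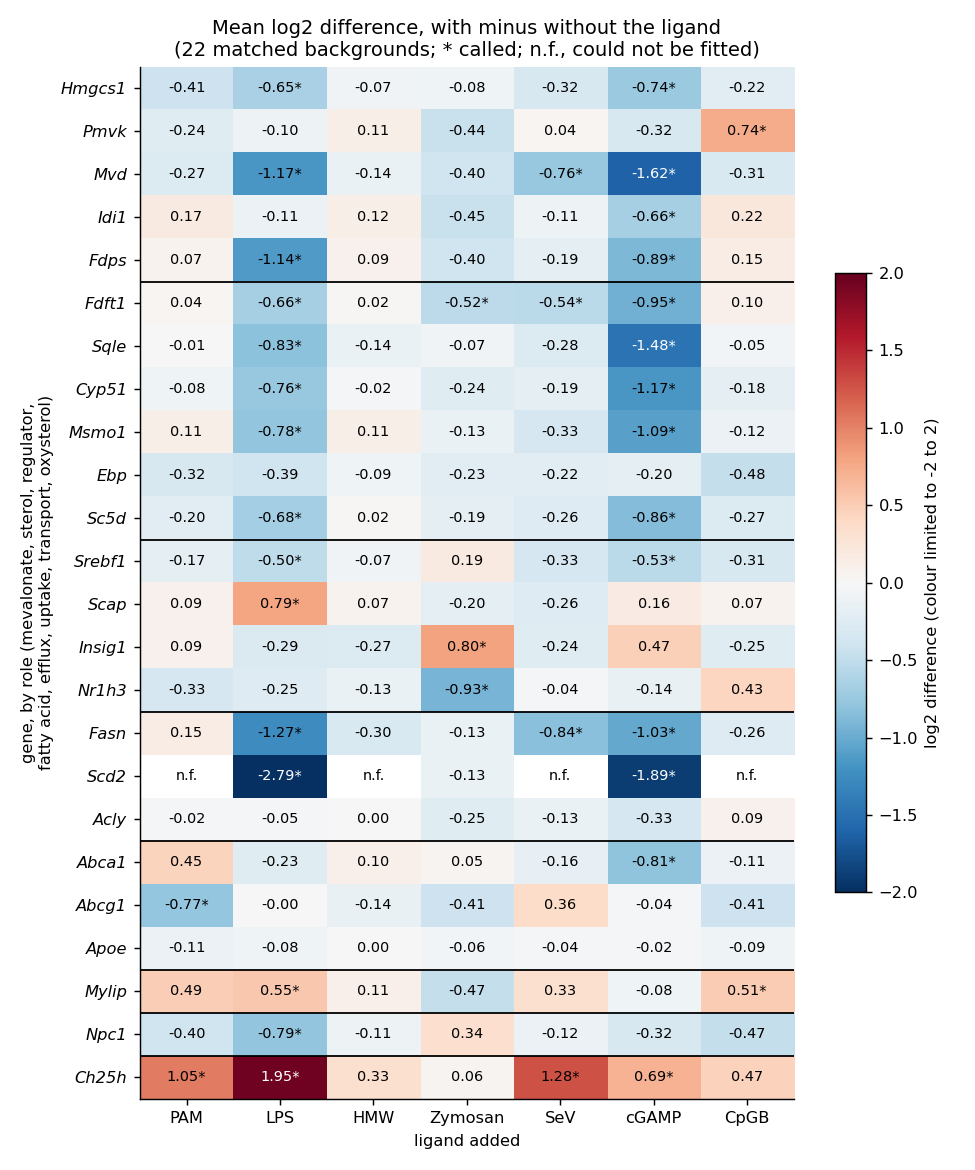
Log2 difference of each tested member between the 22 groups that hold a ligand and the 22 otherwise identical groups that lack it, with genes in rows by role and ligands in columns, an asterisk at calls and n.f. where the test could not be fitted. Most synthesis genes lie below 0 under LPS and cGAMP, with medians of -0.68 and -0.89, while Ch25h is called above 0 under PAM, LPS, SeV and cGAMP.

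The other ligands had fewer calls of members in these backgrounds. With SeV, 3 members fell (2.58% of all genes did) and 1 rose (7.90% of all genes). With Zymosan, 2 fell (3.81% of all genes) and 1 rose (8.58%). With PAM, 1 fell (5.89%) and 1 rose (6.53%). At an unadjusted p under 0.05 and no fold (edgeR), 10 members were lower and 3 higher with SeV, 11 and 2 with Zymosan and 6 and 4 with PAM, among them 6, 6 and 2 synthesis genes lower. CpGB raised 2 members (6.12% of all genes) and lowered none by the fold set (5.06%), though 8 were lower at an unadjusted p under 0.05 (edgeR). HMW changed none, where 0.297% of all genes rose and 0.0847% fell, and at an unadjusted p under 0.05 it had 1 member higher and 2 lower (edgeR). The synthesis medians were -0.26 with SeV, -0.24 with Zymosan, -0.12 with CpGB, -0.08 with PAM and 0.02 with HMW. These differences average over backgrounds in which the ligands can act on each other. The test of Scd2 could not be fitted with PAM, HMW, SeV or CpGB, where it gave no usable error. Scd2 had no count in LPS_cGAMP, PAM_LPS_HMW and PAM_LPS_cGAMP.

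Among the mevalonate genes, Mvd, Fdps and Hmgcs1 fell with both ligands. Mvd, which makes isopentenyl diphosphate, had group means of 0, 8.06 and 15.6 CPM (lowest, median and highest) with cGAMP and of 6.82, 20.7 and 55.8 CPM without it. It was lower with cGAMP in 21 of the 22 backgrounds, by -1.62 ± 0.23 (log2 difference ± SE, adjusted p = 1.03e-10), and lower with LPS in 19 of 22, by -1.17 ± 0.22 (adjusted p = 6.25e-07, edgeR). It had no count in LPS_Zymosan_cGAMP and SeV_cGAMP_CpGB, so the fitted size is no bound. Without replicate 1 of all groups the test of Mvd gave no usable error with LPS (-1.06), and its call there was lost. Fdps makes farnesyl diphosphate, the branch point to sterols and to protein prenylation. Its group means were 22.1, 34.2 and 80.2 CPM with LPS and 33.3, 88.8 and 187 CPM without. It fell with LPS in 20 of 22 backgrounds, by -1.14 ± 0.09, and with cGAMP in all 22, by -0.89 ± 0.09.

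Hmgcs1, the synthase that feeds the rate-limiting step, had group means of 24.4, 44.4 and 85.1 CPM with cGAMP and of 50.5, 73.5 and 138 CPM without, a fall of -0.74 ± 0.09 shown by 21 of 22 backgrounds. It fell with LPS by -0.65 ± 0.09 in 18 of 22. Idi1, the isopentenyl diphosphate isomerase, fell with cGAMP by -0.66 ± 0.07 in 21 of 22 backgrounds, but was not called with LPS, at -0.11 ± 0.07 (adjusted p = 0.185, edgeR). Pmvk, the phosphomevalonate kinase, was called with CpGB alone among the ligands. It rose in 17 of 22 backgrounds, from 6.97, 22.8 and 43.4 CPM without CpGB to 18.1, 42.1 and 72.8 CPM with it, a log2 difference of 0.74 ± 0.13. Its highest group, LPS_HMW_CpGB, read 86.3, 72.0 and 60.2 CPM.

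All of the tested sterol-step genes except Ebp fell with both ligands. Sqle, squalene epoxidase, another rate-limiting enzyme, had group means of 5.26, 15.7 and 35.1 CPM with cGAMP and of 12.2, 41.5 and 89.4 CPM without. The difference was -1.48 ± 0.16 (adjusted p = 1.84e-16, edgeR), lower in 21 of 22 backgrounds, and with LPS it was -0.83 ± 0.17, lower in 18. Cyp51, the lanosterol demethylase, had 4.72, 24.8 and 35.8 CPM with cGAMP and 34.6, 62.0 and 86.1 CPM without. It was lower with cGAMP in all 22 backgrounds, by -1.17 ± 0.12, and the ranges of group means overlapped by little. Msmo1, a methyl sterol oxidase, fell by -1.09 ± 0.11 with cGAMP and -0.78 ± 0.11 with LPS, each in 21 backgrounds. Fdft1, which makes squalene, fell with 4 of the ligands, by -0.95 (cGAMP), -0.66 (LPS), -0.54 (SeV) and -0.52 (Zymosan). The SeV difference was under the fold set without replicate 2 (-0.46) or 3 (-0.44) of all groups, and the Zymosan one without replicate 3 (-0.48). Sc5d, the lathosterol desaturase, fell by -0.86 with cGAMP and -0.68 with LPS.

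**Figure D2:**
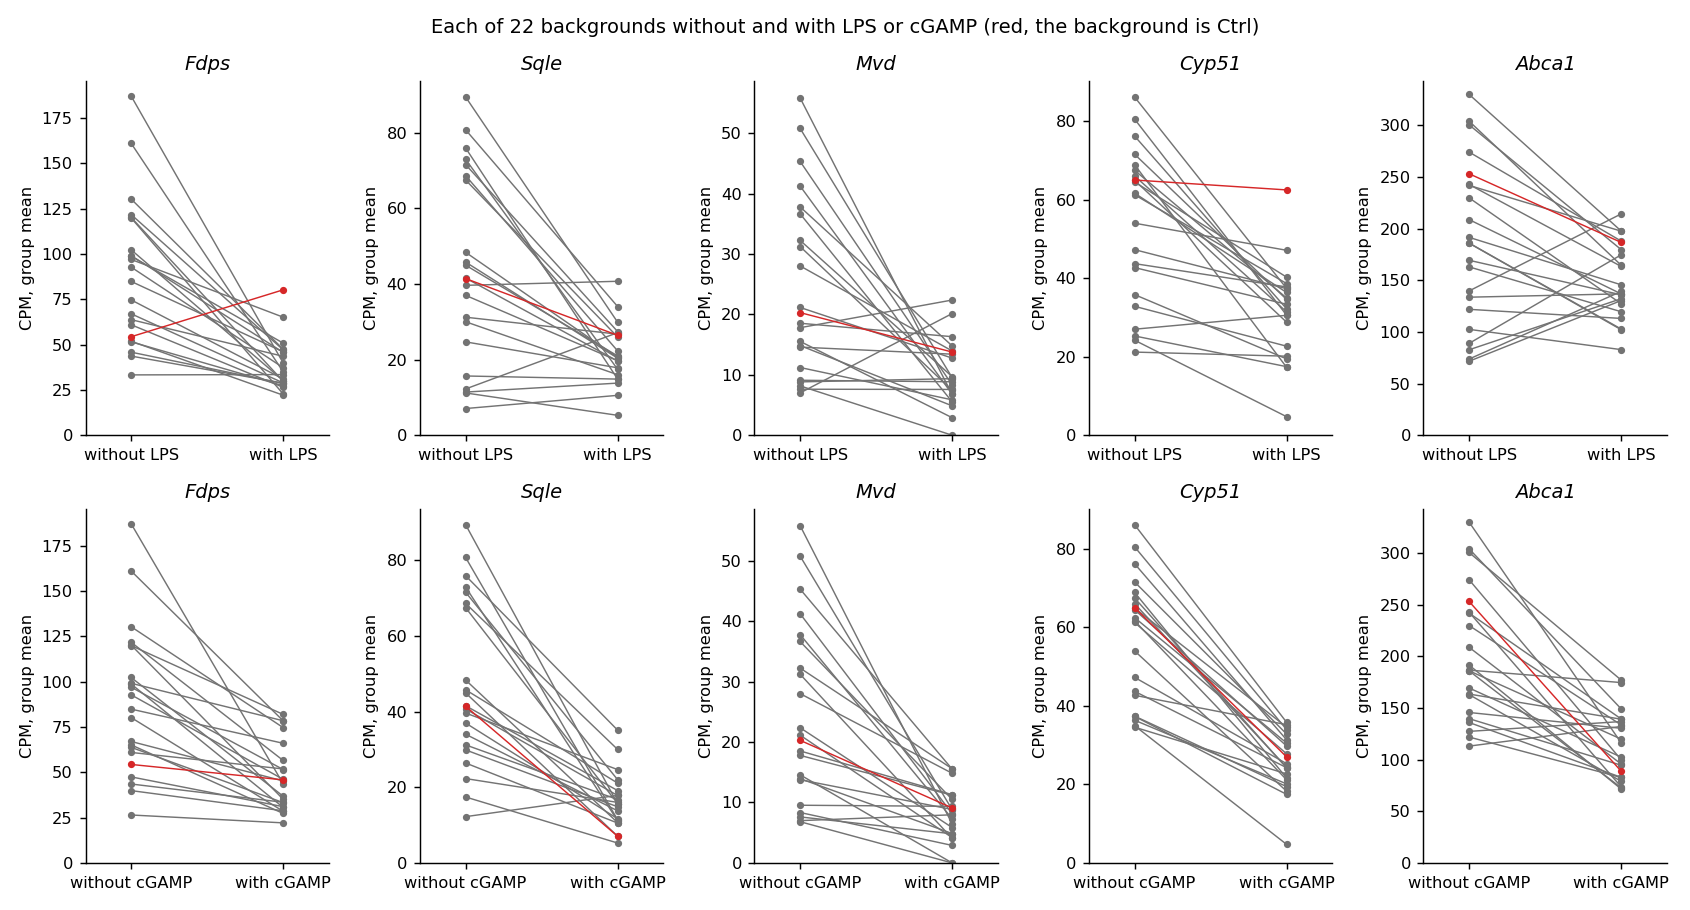
Group mean CPM (vertical axis) of Fdps, Sqle, Mvd, Cyp51 and Abca1 without and with LPS (upper row) or cGAMP (lower row), each line joining 1 of the 22 backgrounds and the red line the Ctrl background. For Cyp51 and Fdps with cGAMP all 22 lines slope down.

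The 8 synthesis genes too low for the main test were not left out of the count of directions. Over all 19 synthesis genes, the CPM pooled over the groups was lower with the ligand for 18 with cGAMP, 18 with LPS, 18 with Zymosan, 17 with SeV, 13 with CpGB, 10 with PAM and 7 with HMW. This count carries no test and says nothing of size. Without the filter on low counts, Hsd17b7 was the only called gene of the 8. It was lower with cGAMP (-1.26, adjusted p = 3.41e-06), LPS (-1.23, 2.07e-05), Zymosan (-0.84, 0.00584) and SeV (-0.69, 0.0393, edgeR). Others, such as Mvk and Lss, gave no usable error there.

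Summed over the 19 genes, synthesis transcripts had ordered medians by whether LPS and cGAMP were present, although neighbouring ranges overlapped. In the 26 groups with neither, group means ran from 520 to 1000 CPM with a median of 680. In the 16 groups with LPS and no cGAMP they ran from 382 to 618 CPM (median 461). In the 16 with cGAMP and no LPS they ran from 297 to 529 CPM (median 387), and in the 6 with both from 257 to 327 CPM (median 315). The 6 groups with both lay below all 26 groups with neither, and below all 16 with LPS and no cGAMP. They overlapped the 16 with cGAMP and no LPS, of which Zymosan_cGAMP_CpGB was lowest at 297 CPM. The highest group was PAM alone at 932, 1086 and 983 CPM, and the lowest was LPS_Zymosan_cGAMP at 229, 308 and 235 CPM. Ctrl stood inside the range of the groups with neither, at 623, 686 and 509 CPM.

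**Figure D3:**
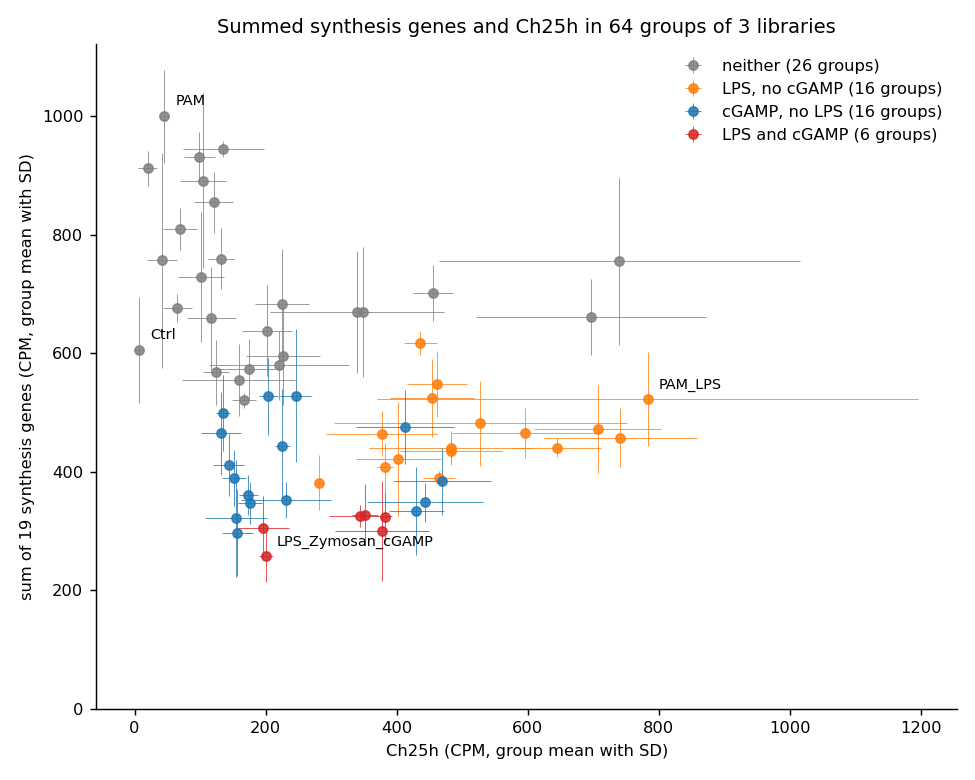
Summed CPM of the 19 synthesis genes against CPM of Ch25h, 1 point with its SD for each of the 64 groups, coloured by the presence of LPS and cGAMP. Groups with both ligands sit between 257 and 327 CPM of synthesis transcripts, and Ch25h spans 7.36 to 740 CPM among the groups with neither.

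Against Ctrl, few synthesis genes passed the test after single ligands, although their summed level was higher after some of them. The sum was 606 ± 89.8 CPM (SD, n = 3) in Ctrl, 1000 ± 78.5 CPM after PAM, 912 ± 29.6 CPM after HMW and 892 ± 148 CPM after CpGB, and the libraries of these 3 ligands all lay above those of Ctrl. No test was made on the sum. No synthesis gene rose or fell after HMW, Zymosan or SeV, where 3, 1 and 1 were higher and none lower at an unadjusted p under 0.05 (edgeR). PAM raised Idi1 and Fdps, LPS raised Idi1, and CpGB raised Idi1 and Fdps. cGAMP lowered Sqle. Here a call needed an adjusted p under 0.05 and no fold. Idi1 read 69.3, 49.9 and 38.4 CPM in Ctrl and 105, 221 and 206 CPM after PAM, with no overlap, a log2 difference of 1.82 ± 0.38 (adjusted p = 4.59e-05, edgeR). That call was lost with libraries thinned to the lowest total (1.19). After LPS it read 104, 139 and 107 CPM (1.19, adjusted p = 0.0160, edgeR), and after CpGB 87.3, 133 and 101 CPM (1.10, adjusted p = 0.0403, edgeR). Both sets of libraries lay above Ctrl, but the calls rested on single libraries. After LPS Idi1 lost its call without Ctrl replicate 3 (1.04, adjusted p = 0.10, edgeR), and after CpGB without Ctrl replicate 2 (1.20), Ctrl replicate 3 (0.99) or CpGB replicate 2 (0.99). DESeq2 called neither (adjusted p = 0.0753 and 0.122), both were lost with library size alone, and that after CpGB also with RLE scaling and without the filter on low counts.

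Fdps read 27.7, 87.3 and 48.0 CPM in Ctrl, 151, 216 and 195 CPM after PAM and 116, 169 and 106 CPM after CpGB. The groups did not overlap, and the log2 differences were 1.78 ± 0.39 and 1.26 ± 0.41. The call after CpGB was lost without Ctrl replicate 1 (1.09), Ctrl replicate 3 (1.25) or CpGB replicate 2 (1.08), with DESeq2 and with library size alone. Sqle read 13.9, 62.4 and 48.0 CPM in Ctrl and 9.17, 5.84 and 6.14 CPM after cGAMP. All cGAMP libraries were lower, but they held 3 counts in total, and the ratio to Ctrl was 0.158 with a counting interval of 0.0283 to 0.598 (95%). Intervals of this kind cover counting error only. The call was lost without Ctrl replicate 2 (-2.12), Ctrl replicate 3 (-2.34) or any of the cGAMP libraries (-2.63, -2.36 and -2.41), and without the filter on low counts. Hmgcs1 was not called after any single ligand. It read 97.0, 49.9 and 57.6 CPM in Ctrl, 150, 126 and 139 CPM after HMW (1.03 ± 0.42, adjusted p = 0.366, edgeR) and 46.0, 173 and 173 CPM after Zymosan, where 1 library lay below every Ctrl library.

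Differences between ligands were tested directly between the single-ligand groups. Over the 21 pairs of ligands, 123 of 504 member comparisons were called (24.4%), against 18.8% over all genes. Hmgcs1 and Fdps were called in 9 of the 21, Sqle in 6 and Idi1 in 4. The widest gaps in Sqle were Zymosan above cGAMP by 3.66 and HMW above cGAMP by 3.44 (log2).

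Over all members, PAM alone raised 2 of 24 and lowered 4, where 9.68% of all genes rose and 7.78% fell. LPS raised 4 and lowered 4 (17.1% and 12.9% of all genes). SeV raised 2 and lowered 3 (12.2% and 7.25%). cGAMP raised 2 and lowered 4 (13.5% and 8.16%), and CpGB raised 4 and lowered 3 (12.5% and 8.92%). Zymosan raised none and lowered 2 (6.23% and 2.86%), and HMW changed none (1.19% and 0.0212%). At an unadjusted p under 0.05 (edgeR), 3 members were higher after Zymosan, and 3 were higher and 1 lower after HMW. DESeq2 called none after HMW and 2 lower after Zymosan, and 9 higher and 19 lower over the 7 ligands, where the main test called 14 higher and 20 lower. Without the filter on low counts the split was 14 and 6. The share of members that fell was 16.7% after PAM, LPS and cGAMP, 12.5% after SeV and CpGB and 8.33% after Zymosan, which rests on 2 to 4 genes each.

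In combinations against Ctrl, more members fell than rose. Over the 21 pairs, 48 of 504 member comparisons were higher (9.52%, against 15.9% over all genes) and 85 lower (16.9%, against 11.2%). Over the 35 triplets, 70 of 840 were higher (8.33%, against 18.1%) and 186 lower (22.1%, against 13.2%). With library size as the only scaling, the median of all genes shifted by -0.33 in pairs and -0.37 in triplets, and members were higher and lower 34 and 130 times in pairs, 50 and 283 times in triplets, and 9 and 23 times after single ligands. Without the filter on low counts members were higher and lower 56 and 37 times in pairs, so that the order turned, and 74 and 77 times in triplets. Among the 11 synthesis genes tested in each combination, pairs gave 14 higher and 7 lower calls, and triplets 16 and 26. The later sterol steps gave 7 lower calls in 126 pair tests and 23 in 210 triplet tests, Ebp giving 5 and 12 of them. Over all genes 15.9% and 18.1% of such tests were higher and 11.2% and 13.2% lower. Apoe and Scd2 each gave 20 and 35 of the members' lower calls. Cyp51 fell in 6 triplets, Sqle in 3 and Mvd in 2, and each of these triplets held cGAMP. The synthesis median was lowest in LPS_SeV_cGAMP, at -1.23, and highest in the pair PAM_CpGB, at 0.78, while medians over all genes ran from -0.09 to 0.02. Idi1 rose in 10 pairs and 11 triplets and fell in none. Ebp, the sterol isomerase, was not called in the matched backgrounds and yet fell against Ctrl in 5 pairs and 12 triplets: its highest group mean of all 64 was in Ctrl, at 97.0, 37.4 and 57.6 CPM, where 1 library lay well above the others.

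Promoters of the members were read from RefSeq on GRCm38.p6, 250 bases upstream of the start site, for the 27 members with a window. Both strands were searched. The box CCAAT, bound by the factor NF-Y that works beside SREBP, was in 15 of 16 synthesis genes (93.8%) and in 37.5% of all genes. The sterol regulatory element, searched as TCACNCCAC, was in Hmgcs1 alone among members, 137 bases before its start, and in 1.23% of genes. The E-box CACGTG was in 6 of 27 members and 6.86% of genes, and the interferon-stimulated response element core in Ggps1 and Ebp and 3.46% of genes. GGGANTTTC, an NF-kB site, was in no member and in 1.11% of genes, and the LXR element DR4 was in no member and in 0.015% of genes. A match describes letters only, and motifs did not overlap in the stretches shown. The stretches below belong to the most abundant synthesis genes with a match and to Ch25h, with matches in capitals on either strand (CCAAT or its complement, and the sterol element of Hmgcs1), each written in the direction of its gene.
Idi1, chr13:8885506-8885605, plus strand: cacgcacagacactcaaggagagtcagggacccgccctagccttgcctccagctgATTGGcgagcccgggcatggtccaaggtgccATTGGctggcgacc
Hmgcs1, chr13:119690168-119690267, plus strand: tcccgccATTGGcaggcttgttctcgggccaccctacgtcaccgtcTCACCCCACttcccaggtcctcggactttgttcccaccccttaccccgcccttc
Msmo1, chr8:64733579-64733678, minus strand: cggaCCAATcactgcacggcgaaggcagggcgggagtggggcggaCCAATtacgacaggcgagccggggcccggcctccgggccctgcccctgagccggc
Cyp51, chr5:4104698-4104797, minus strand: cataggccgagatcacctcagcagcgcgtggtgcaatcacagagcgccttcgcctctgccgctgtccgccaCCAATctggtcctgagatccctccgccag
Ch25h, chr19:34475149-34475248, minus strand: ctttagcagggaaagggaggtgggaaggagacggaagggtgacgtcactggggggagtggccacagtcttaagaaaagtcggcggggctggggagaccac
Idi1 and Msmo1 each show the box as a pair of copies, Hmgcs1 shows it beside the sterol element, and Ch25h shows none of the searched motifs in this stretch.

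Among the regulators, Insig1, which retains SCAP and is itself an SREBP target, rose with Zymosan in 21 of 22 backgrounds. Its group means were 177, 272 and 545 CPM with Zymosan and 85.3, 153 and 246 CPM without, a log2 difference of 0.80 ± 0.06 (adjusted p = 5.35e-26, edgeR). It was also higher with cGAMP in 21 of 22, by 0.47 ± 0.07 (adjusted p = 6.51e-11, edgeR), below the fold set for a call, while the synthesis genes fell. Against Ctrl, at 152, 150 and 144 CPM, Insig1 rose in 5 pairs and 5 triplets, all of which held Zymosan. The highest group was PAM_Zymosan_cGAMP, at 505, 612 and 517 CPM. After Zymosan alone it read 230, 339 and 233 CPM, above every Ctrl library, with an adjusted p of 0.118 (edgeR).

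Nr1h3, which encodes LXR alpha, fell with Zymosan in the matched backgrounds and rose after CpGB alone. It was lower with Zymosan in 21 of 22 backgrounds, at 18.4, 48.2 and 74.3 CPM with it and 34.1, 84.1 and 158 CPM without (-0.93 ± 0.09). With CpGB the difference over the backgrounds was 0.43 ± 0.09, below the fold set for a call. CpGB alone gave 165, 148 and 143 CPM against 41.6, 12.5 and 67.2 CPM in Ctrl, a log2 difference of 1.79 ± 0.45 (adjusted p = 7.72e-04, edgeR). LPS alone gave 156, 128 and 53.7 CPM, also called (1.3, adjusted p = 0.0254, edgeR), with 1 library among the Ctrl values. That call was lost without Ctrl replicate 1 (1.33), Ctrl replicate 2 (0.97), LPS replicate 1 (1.11) or LPS replicate 2 (1.22), and with RLE scaling, library size alone, libraries thinned to the lowest total and DESeq2. Without Ctrl replicate 3 the differences were 2.05 after LPS and 2.58 after CpGB. The 3 pairs and 5 triplets in which Nr1h3 rose all held CpGB.

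Srebf1, which encodes SREBP1, fell with cGAMP (-0.53 ± 0.11) and LPS (-0.50 ± 0.11), in 18 of 22 backgrounds each. Both lie close to the fold set for a call. The LPS difference was under it without replicate 3 of all groups (-0.46) and without the filter on low counts (-0.47), and the cGAMP one without replicate 1 (-0.50) or 3 (-0.46), at adjusted p of 0.00897 or lower (edgeR). It was not called after a single ligand. Its Ctrl libraries were spread, at 13.9, 74.8 and 76.8 CPM, and overlapped LPS (14.9, 33.3 and 44.7 CPM) and cGAMP (18.3, 52.6 and 18.4 CPM). Scap rose with LPS in 20 of 22 backgrounds (0.79 ± 0.15), at 20.3, 29.3 and 46.6 CPM with it and 4.16, 17.9 and 34.3 CPM without. In Ctrl it rested on 1 count, so its ratio after LPS alone, 8.10, has a counting interval of 1.27 to 339. That call (log2 2.79) was lost without Ctrl replicate 1 (2.42), Ctrl replicate 3 (2.19) or LPS replicate 3 (2.39), and with RLE scaling, library size alone, no filter on low counts and DESeq2. Ctrl replicate 2 held the 1 count, so no fold can be given without it. Srebf2, which encodes SREBP2, was too low for the main test, with group means of 1.5 to 35.8 CPM. Without the filter on low counts it was called lower over the cGAMP backgrounds (-0.68 ± 0.21, adjusted p = 0.00638, edgeR), and with no other ligand.

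Fatty acid synthesis genes are targets of SREBP1 and LXR. Scd2, a stearoyl-CoA desaturase, read 166, 150 and 144 CPM in Ctrl and 0, 5.54 and 4.47 CPM after LPS, with no overlap. The LPS libraries held 2 counts in total, a ratio of 0.0244 to Ctrl with a counting interval of 0.00286 to 0.0944. After cGAMP it read 18.3, 23.4 and 12.3 CPM (-3.03 ± 0.56), after SeV 38.2, 15.3 and 32.8 CPM (-2.37 ± 0.52), and after CpGB 19.4, 40.9 and 13.8 CPM (-2.56 ± 0.51). PAM gave a smaller fall, to 91.9, 75.4 and 38.9 CPM (-1.16 ± 0.43, adjusted p = 0.0461, edgeR), whose call was lost without any 1 of the Ctrl libraries (-1.08, -1.13 and -1.18), PAM replicate 2 (-1.19) or PAM replicate 3 (-0.86), with DESeq2 and without the filter on low counts. Scd2 read 99.8, 153 and 167 CPM after HMW and 138, 102 and 159 CPM after Zymosan, overlapping Ctrl, and neither was called. It fell in 20 of 21 pairs and in all 35 triplets.

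In the matched backgrounds Scd2 fell with LPS in 20 of 22, from 6.34, 24.9 and 153 CPM without to 0, 5.26 and 13.8 CPM with it, and with cGAMP in all 22. The fitted differences, -2.79 and -1.89, include groups with no count and are no bounds. Where the test could not be fitted, the pooled CPM differed by log2 -0.95 with PAM, -0.27 with HMW, -1.56 with SeV and -1.06 with CpGB. Fasn, fatty acid synthase, read 55.4, 49.9 and 48.0 CPM in Ctrl and 0, 11.1 and 13.4 CPM after LPS, a fall of -2.37 ± 0.77 called at an adjusted p of 0.0108 (edgeR), but not without LPS replicate 1, the library at 0 (-1.88, adjusted p = 0.0636, edgeR), nor without the filter on low counts. It fell in the backgrounds with LPS (-1.27 ± 0.19), cGAMP (-1.03 ± 0.20) and SeV (-0.84 ± 0.18), and in 10 pairs and 24 triplets against Ctrl. Acly, which supplies acetyl-CoA for both fatty acids and sterols, was called lower in 1 triplet, PAM_SeV_cGAMP, at 49.6, 41.3 and 32.9 CPM against 83.1, 112 and 96.0 CPM in Ctrl.

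**Figure D4:**
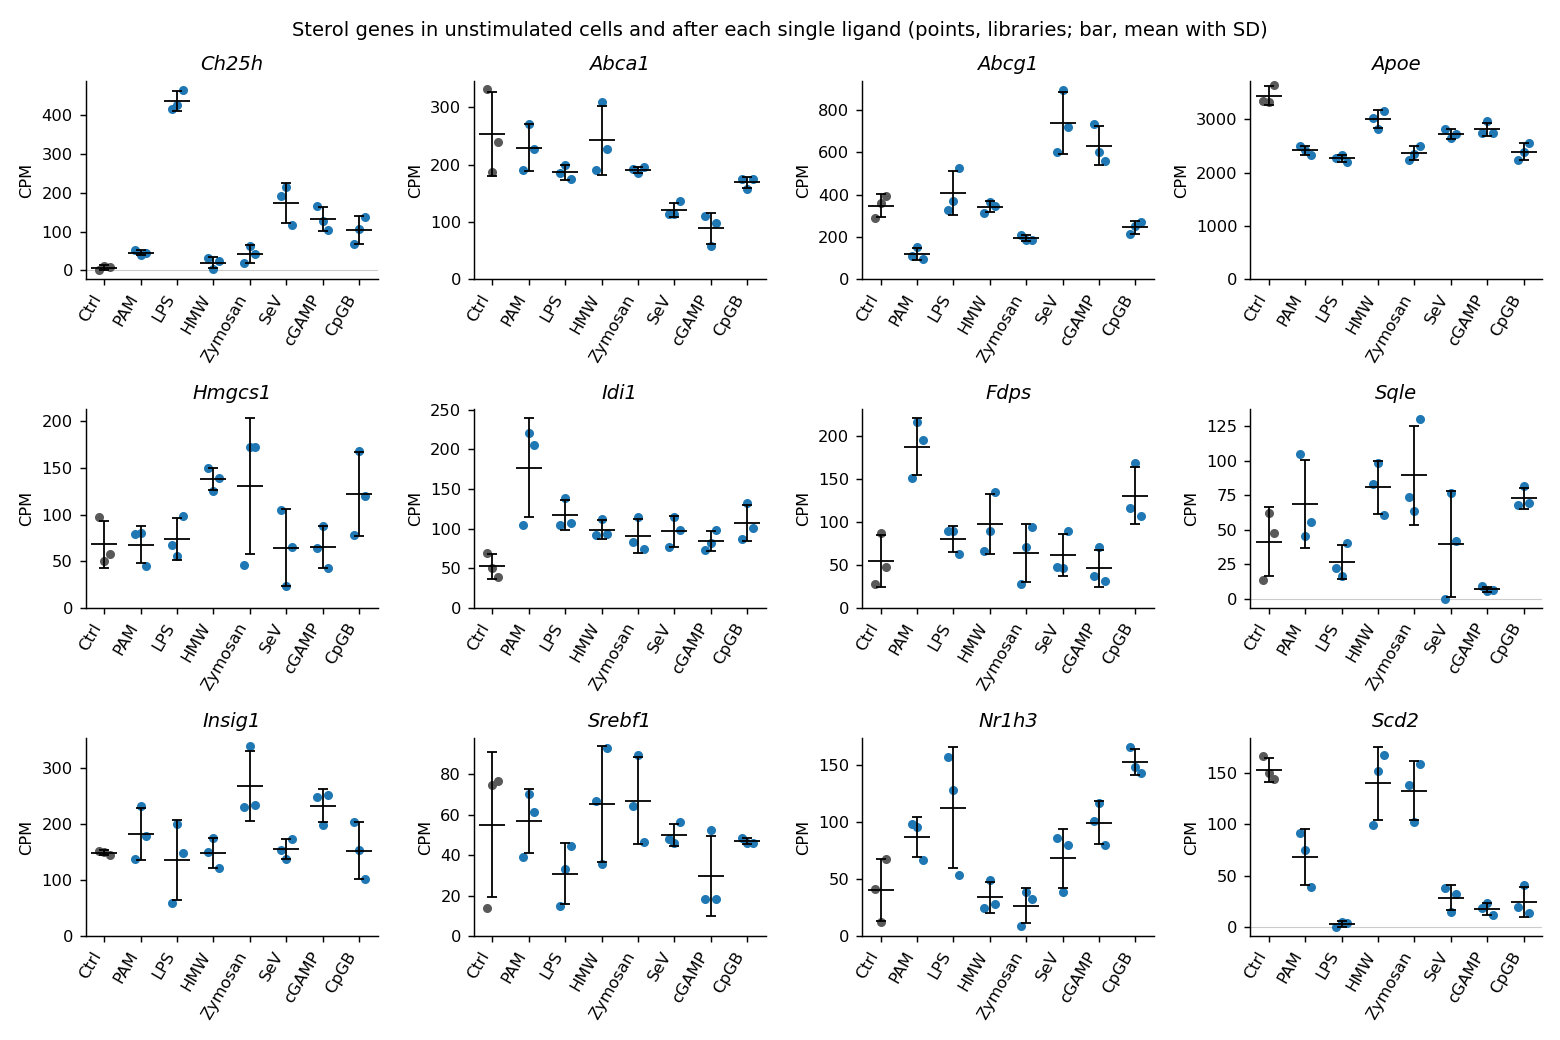
CPM of named members in the 3 libraries of Ctrl and of each single ligand, on a linear axis for each gene, with a bar at the mean and its SD. Scd2 drops from 144 to 166 CPM in Ctrl to at most 5.54 CPM after LPS, and Ch25h rises from at most 12.5 CPM to at least 417 CPM.

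The 3 efflux genes went different ways. Abcg1, which passes cholesterol to HDL, read 291, 362 and 394 CPM in Ctrl. It rose to 602, 897 and 718 CPM after SeV (1.07 ± 0.21) and to 734, 602 and 559 CPM after cGAMP (0.82 ± 0.22), and fell to 112, 151 and 94.5 CPM after PAM (-1.55 ± 0.28) and to 212, 186 and 187 CPM after Zymosan (-0.87 ± 0.26). None of these 4 groups overlapped Ctrl. The call after cGAMP was lost with libraries thinned to the lowest total (0.53). The call after Zymosan was lost without Ctrl replicate 2 (-0.82), Ctrl replicate 3 (-0.73), Zymosan replicate 2 (-0.83) or Zymosan replicate 3 (-0.81), and without the filter on low counts. After LPS it read 328, 371 and 528 CPM, overlapping Ctrl, and after CpGB 214, 250 and 272 CPM, below it, and neither was called. Tested directly, PAM lay below SeV by -2.62 and below cGAMP by -2.37 (log2), and Abcg1 was called in 16 of the 21 comparisons between single ligands.

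Adding PAM lowered Abcg1 in all 22 backgrounds, from 195, 342 and 739 CPM to 119, 214 and 338 CPM (-0.77 ± 0.05, adjusted p = 7.02e-37, edgeR). Over the backgrounds its difference was 0.36 ± 0.05 with SeV (adjusted p = 1.14e-11, edgeR), below the fold set for a call, and -0.04 ± 0.05 with cGAMP (adjusted p = 0.556, edgeR). Abcg1 rose against Ctrl in 2 pairs, HMW_SeV and SeV_cGAMP, and in no triplet, and fell in 6 pairs and 14 triplets.

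Abca1, which loads cholesterol onto apolipoproteins, read 332, 187 and 240 CPM in Ctrl, 115, 115 and 136 CPM after SeV and 110, 58.4 and 98.2 CPM after cGAMP. Both lay below every Ctrl library, with log2 differences of -1.0 ± 0.28 and -1.53 ± 0.30. The call after SeV was lost without Ctrl replicate 1, the highest Ctrl library (-0.75, adjusted p = 0.0984, edgeR), and without the filter on low counts. It fell with cGAMP in 20 of 22 backgrounds, from 113, 186 and 330 CPM to 71.6, 109 and 177 CPM (-0.81 ± 0.06). After SeV and cGAMP alone Abca1 and Abcg1 thus changed in opposite directions. With PAM Abca1 was higher in 19 of 22 backgrounds, by 0.45 ± 0.05, below the fold set for a call, where Abcg1 fell.

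Apoe, the apolipoprotein that accepts effluxed cholesterol, was highest in Ctrl, at 3352, 3330 and 3648 CPM. It fell after every single ligand but HMW, by -0.60 ± 0.11 after LPS (2270, 2339 and 2210 CPM) and by -0.29 ± 0.11 after cGAMP (2742, 2962 and 2737 CPM). The calls after cGAMP and SeV were lost without any 1 library of Ctrl or of the ligand, at -0.17 to -0.26 after cGAMP and -0.23 to -0.31 after SeV, and all 6 were lost without the filter on low counts, at -0.09 to -0.36. After HMW it read 3027, 2829 and 3165 CPM, below each Ctrl library, and was not called. Apoe fell in 20 of 21 pairs and all 35 triplets, but by no more than -0.11 in the mean of any ligand's 22 backgrounds. Summed efflux transcripts were highest in Ctrl, at 4045 CPM, and lowest in LPS_cGAMP_CpGB, at 2604 CPM. Apoe made up 76.0% to 87.4% of the sum after single ligands. In pairs, 2 of 63 tests of efflux genes were higher and 36 lower (15.9% and 11.2% of all genes), and in triplets 0 of 105 were higher and 68 lower (18.1% and 13.2%). Apoe gave 20 and 35 of these lower calls.

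Of uptake and transport genes, Mylip, a ubiquitin ligase that removes lipoprotein receptors and is a target of LXR, rose with LPS (0.55 ± 0.14) and CpGB (0.51 ± 0.14), in 18 and 19 of 22 backgrounds. With library size alone neither reached the fold set (0.42 and 0.45), and that with CpGB did not without replicate 2 (0.42). With CpGB its group means were 9.90, 30.3 and 50.1 CPM, against 7.05, 20.3 and 47.8 CPM without. Npc1, which exports cholesterol from lysosomes, read 139, 150 and 86.4 CPM in Ctrl and fell after LPS (22.3, 27.7 and 85 CPM), CpGB (38.8, 51.1 and 36.9 CPM) and PAM (65.6, 50.3 and 50.0 CPM). None overlapped Ctrl, although 1 LPS library lay just under it. The fall after LPS, -1.28 ± 0.39, lost its call without Ctrl replicate 2 (-1.05), LPS replicate 1 (-0.94) or LPS replicate 2 (-0.92) and was -2.14 without LPS replicate 3. The fall after CpGB lost it without Ctrl replicate 2 (-1.22), and that after PAM without Ctrl replicate 1 (-1.03), Ctrl replicate 2 (-0.94), PAM replicate 2 (-1.02) or PAM replicate 3 (-1.07). All 3 were lost without the filter on low counts. It fell in 12 pairs and 27 triplets, and with LPS in 19 of 22 backgrounds (-0.79 ± 0.09).

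Ch25h was the member that rose most. It read 0, 12.5 and 9.60 CPM in Ctrl, 2 counts in all, and 417, 427 and 465 CPM after LPS. SeV gave 191, 215 and 117 CPM, cGAMP 165, 129 and 104 CPM, and CpGB 67.9, 107 and 138 CPM. All 4 groups lay above every Ctrl library and were called. PAM gave 52.5, 40.2 and 44.5 CPM, Zymosan 18.4, 64 and 42.0 CPM, and HMW 33.3, 4.48 and 23.2 CPM, and none of these was called. The PAM and Zymosan libraries also lay above every Ctrl library, at unadjusted p of 0.0109 and 0.0142 (edgeR). Since Ctrl held 2 counts, the ratios are given with counting intervals: 56.5 (15.5 to 469) after LPS, 20.9 (5.58 to 176) after SeV, 16.5 (4.36 to 140) after cGAMP and 14.4 (3.82 to 122) after CpGB. For the ligands not called they were 5.79 (1.44 to 50.6) after PAM, 5.62 (1.37 to 49.4) after Zymosan and 2.30 (0.489 to 21.6) after HMW.

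The order of Ch25h was LPS, SeV, cGAMP, CpGB, PAM, Zymosan and HMW. LPS stood above SeV by 1.40 (adjusted p = 4.09e-06, edgeR), above cGAMP by 1.76 and above CpGB by 1.97 (log2). CpGB stood above PAM by 1.29 (adjusted p = 0.0276, edgeR). The neighbours SeV and cGAMP, cGAMP and CpGB, PAM and Zymosan, and Zymosan and HMW did not pass the test.

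PAM, which alone did not pass the test, raised Ch25h when added to other ligands. It was higher with PAM in all 22 backgrounds, at 45.7, 421 and 783 CPM with it and 7.36, 155 and 644 CPM without (1.05 ± 0.07, adjusted p = 7.73e-33, edgeR). LPS raised Ch25h in 20 of 22 backgrounds (1.95 ± 0.06) and SeV in 21 of 22 (1.28 ± 0.07). The difference with cGAMP was called, at 0.69 ± 0.07, but Ch25h was higher in only 12 of 22 backgrounds, and the pooled CPM differed by log2 0.08.

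A pair that exceeded both of its ligands was asked for directly, each side by a log2 difference of at least 0.5. Ch25h did so in 4 of the 21 pairs, all with PAM, and no other member did so: 4 of 504 comparisons (0.794%), against 0.759% over all genes, and none lay below both, against 0.0948%, with 14 comparisons below both at an unadjusted p under 0.05 (edgeR). PAM_SeV read 508, 854 and 729 CPM, above SeV by 2.10 (adjusted p = 1.57e-12, edgeR). PAM_cGAMP read 388, 431 and 472 CPM, above cGAMP by 1.74. PAM_HMW read 154, 116 and 127 CPM, above PAM by 1.51 (adjusted p = 0.0104, edgeR). PAM_LPS read 337, 860 and 1152 CPM, above LPS by 0.93, with 1 library below every LPS library, and had the highest mean of the 64 groups. The PAM_HMW and PAM_LPS calls were lost without replicate 2 or replicate 3 of all groups, at 1.53 and 1.56 for PAM_HMW and 0.82 and 0.57 for PAM_LPS. Ch25h rose against Ctrl in all 21 pairs and all 35 triplets.

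**Figure D5:**
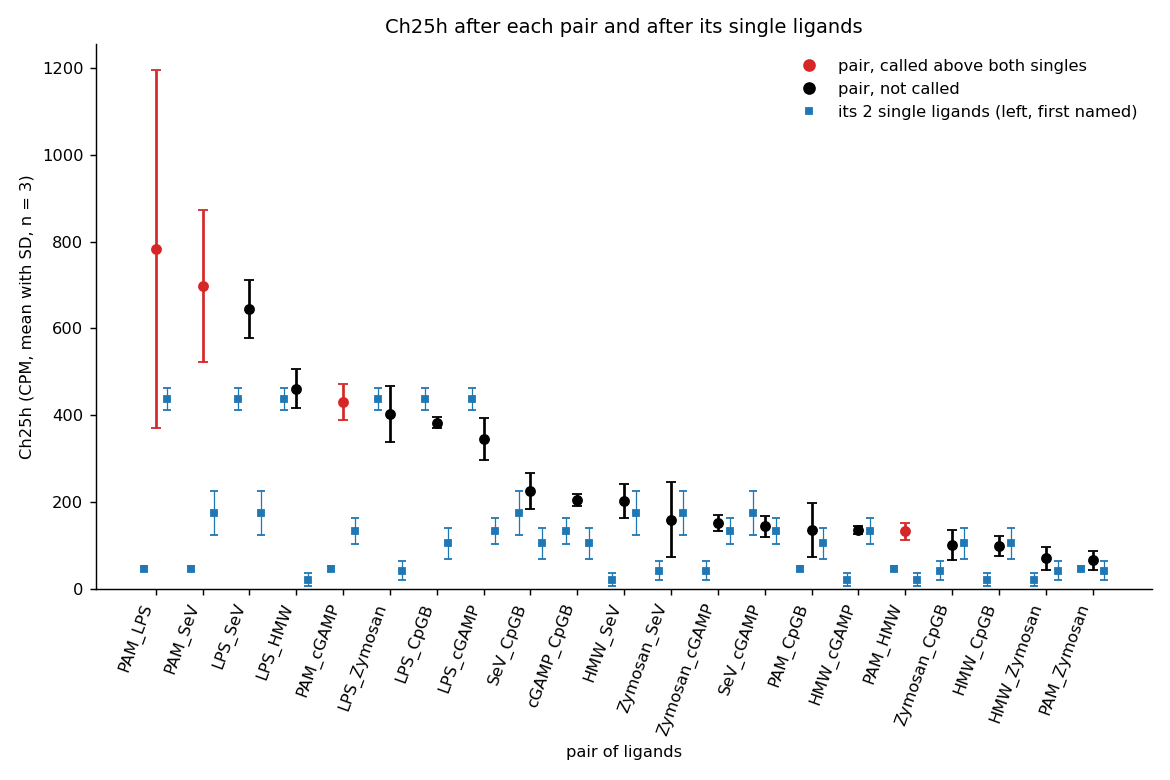
CPM of Ch25h (mean with SD of 3 libraries) after each of the 21 pairs, as circles in falling order, and after the pair's single ligands, as squares, with the 4 pairs called above both singles in red. PAM_LPS, with a mean of 783 CPM, has the widest SD, 413 CPM.

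Departures from adding log2 effects were tested in each pair as the pair minus both singles plus Ctrl. Over the 21 pairs, 11 of 504 member tests were higher than additive (2.18%, against 1.08% over all genes) and 22 lower (4.37%, against 3.50%). The split was 17 and 20 with RLE scaling and 17 and 19 with library size alone. It was 1 and 20 without the filter on low counts, 5 and 23 without replicate 1 of all groups, 4 and 11 without replicate 2 and 3 and 15 without replicate 3. The lower calls were in Ch25h, Idi1, Fdps, Nr1h3, Abcg1, Pmvk and Msmo1. Idi1, raised by PAM, LPS and CpGB singly, was below the additive level in PAM_LPS and LPS_CpGB and in other pairs that hold Zymosan or cGAMP. All 6 calls of Idi1 were lost without replicate 2 and without replicate 3. Fdps, raised by PAM and CpGB singly, was below the additive level in PAM_LPS, LPS_CpGB and PAM_CpGB. Fdps read 27.3, 42.7 and 49.6 CPM in PAM_LPS, below all libraries of PAM and of LPS alone (-2.64). Msmo1 read 0, 17.0 and 23.5 CPM in LPS_CpGB, against 74.4, 66.5 and 44.7 CPM after LPS and 67.9, 107 and 69.2 CPM after CpGB (-2.41), a call lost without replicate 1 or 2. The higher calls were in Apoe, Scd2, Abca1 and Abcg1, and those of Apoe and Scd2 were all lost without the filter on low counts.

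Set side by side, synthesis, efflux and Ch25h did not share 1 order over ligands. The log2 ratio of summed synthesis to summed efflux CPM was -2.75 ± 0.29 (SD, n = 3) in Ctrl. It was higher by 1.28 after PAM, 1.08 after CpGB, 0.86 after Zymosan, 0.77 after HMW, 0.53 after LPS and 0.10 after SeV, and lower after cGAMP, by -0.19. No test was run on this score, and with the mean of member log2 CPM in place of the sum the LPS value was -0.15. Ch25h had group means of 281 to 783 CPM (median 473) in the groups with LPS and no cGAMP, where synthesis was intermediate. It had 133 to 469 CPM (median 190) with cGAMP and no LPS and 197 to 382 CPM (median 348) with both, where synthesis was lowest. In the groups with neither it spanned 7.36 to 740 CPM: PAM_HMW_SeV, at 740 CPM of Ch25h, had 755 CPM of synthesis transcripts.

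Other genes of the pathways were read from fixed lists. Of 8 interferon-stimulated genes, all 8 rose after LPS, SeV, cGAMP and CpGB alone, with the largest log2 rises in Cxcl10 after LPS (4.25) and cGAMP (4.86), Ifit3 after SeV (4.72) and Ifit1 after CpGB (2.87). HMW raised 4 of them, Zymosan 3 and PAM 2. In the matched backgrounds LPS, SeV and cGAMP raised all 8 and CpGB 3. Of 14 further SREBP targets 5 could be tested. LPS alone lowered 4 of these, most of all Fads1, a fatty acid desaturase (-5.36), SeV lowered 2, with Elovl5, an elongase, at -2.56, and PAM, cGAMP and CpGB lowered Fads1 alone. In the matched backgrounds LPS lowered 4, most of all Fads1 (-2.90), PAM 3, SeV, cGAMP and CpGB 2 each and Zymosan 1, while cGAMP raised Insig2, a relative of Insig1, by 1.69 and Zymosan raised it by 0.63. There, of 6 tested LXR targets, cGAMP raised Arl4c, a small GTPase (1.57), and lowered 1, and Zymosan raised Arl4c (0.66). Of 9 tested genes of cholesterol handling, LPS lowered 5 and raised 1, with Nceh1, a cholesteryl ester hydrolase, at -0.96, and PAM lowered 3 and raised 1, with Nceh1 at -1.51. cGAMP raised Cyp27a1, a sterol hydroxylase, by 0.80 and lowered 2 others, CpGB raised 1 and lowered 2, and SeV and Zymosan raised 1 each. HMW changed none of these 3 lists in the backgrounds. Alone, PAM lowered 4 of the 9, LPS raised 2 and lowered 5, CpGB raised 3 and lowered 4, SeV and cGAMP each raised 2 and lowered 1, and Zymosan lowered 1, while LPS, cGAMP and CpGB each lowered 1 LXR target. The shares of all genes called with each ligand are those given for the members above, such as 11% lower with LPS in the backgrounds, and these lists hold few genes.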

How the data were processed

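RNA of 192 libraries was reverse transcribed with template switching, pooled as cDNA and sequenced, per the labels' protocols. The authors deposited 1 table of raw UMI counts per gene symbol. BWA 0.7.15 and mm10 are named in the submitters' processing notes, and how counts were collapsed or shared between similar genes is not given in the sources used here. Groups came from the labels' ligand names.

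From the counts, 1 edgeR 4.0.16 quasi-likelihood model (R 4.3.3, limma 3.58.1) was fitted to all 192 libraries, with 1 coefficient per group, TMM scaling and the filterByExpr filter. It kept 4720 of 23481 genes, with 95.7% of UMIs and 128 residual degrees of freedom. P-values were adjusted by Benjamini-Hochberg over all tested genes within each comparison, and called at 0.05, with a log2 difference of at least 0.5 for matched backgrounds and for pairs against both singles. No 2 libraries were identical. On simulated counts with 4720 genes, 100 of them changed at each size, the comparison of LPS alone recovered 28% of changes of log2 1 and 71% of log2 2, and the matched backgrounds of LPS 99% and 100%. Among the unchanged genes, 4 were called for LPS alone and 1 over its backgrounds. Genes were changed only in groups with LPS, and the simulated comparisons of PAM, alone and over its backgrounds, gave 0 calls.

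Members, lists, motifs and tests were chosen with earlier results of these data known. Library values are printed for Ch25h, the efflux genes, Hmgcs1, Sqle, Insig1 and Srebf1, for the called member with the largest rise and fall per single ligand at a mean of at least 20 CPM, and group ranges for the 3 members with the largest difference per ligand in matched backgrounds. Others given in full, such as Cyp51, Ebp, Acly, Msmo1 and Scap, were chosen after their values were seen. Alternatives covered scaling, filter, fold, replicate number, left-out libraries, depth and DESeq2 1.42.0.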

Additional observations from a re-analysis of the deposited data

Results flagged for a closer look

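In 33 member tests the effect of a ligand differed between cells that did and did not receive the other ligand of the pair, by the interaction term of the model (pair minus both singles plus Ctrl, log2, edgeR adjusted p under 0.05). Of 504 such tests of members, 2.18% were higher and 4.37% lower, against 1.08% and 3.50% over all genes. Every term includes the same 3 Ctrl libraries, so the terms of a gene are not independent of each other. The gap of the highest or lowest library to the others was not tested, since the groups hold 3 libraries.

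Ch25h, the 25-hydroxycholesterol enzyme, was below the additive level in the 6 pairs among LPS, SeV, cGAMP and CpGB: by -4.29 in LPS_cGAMP, -4.09 in SeV_cGAMP, -3.92 in LPS_CpGB, -3.73 in LPS_SeV, -3.28 in SeV_CpGB and -3.05 in cGAMP_CpGB. All of these terms rest on Ctrl, where Ch25h had 2 counts, and their sizes are uncertain. The call in cGAMP_CpGB was lost without replicate 1, 2 or 3 of all groups, and that in SeV_CpGB without replicate 3. None of the pairs in which it exceeded both singles is among them.

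Idi1, the isopentenyl diphosphate isomerase, was below the additive level in PAM_Zymosan (-2.05), PAM_cGAMP (-1.90), LPS_Zymosan (-1.82), SeV_cGAMP (-1.71), LPS_CpGB (-1.50) and PAM_LPS (-1.44). All 6 calls were lost without replicate 2, without replicate 3 and with libraries thinned to the lowest total. The Idi1 terms were below 0 in all 21 pairs, at -2.05 to -0.58, and Ctrl had its lowest mean among the 26 groups with neither LPS nor cGAMP. Fdps, the farnesyl diphosphate synthase, was below the additive level in PAM_LPS (-2.64), LPS_CpGB (-2.05) and PAM_CpGB (-1.91). Msmo1 was below it in LPS_CpGB (-2.41) and Pmvk in LPS_cGAMP (-2.69). The Msmo1 call was lost without replicate 1 or 2, and the Pmvk call remained in 2 of 7 alternatives.

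Nr1h3, the gene of LXR alpha, was below the additive level in LPS_CpGB (-2.07), LPS_cGAMP (-1.98) and cGAMP_CpGB (-1.84), all lost without replicate 2. Abcg1 was below it in LPS_cGAMP (-1.23) and SeV_cGAMP (-1.05) and above it in PAM_LPS (1.28), and Abca1 was above it in LPS_cGAMP (1.47). The PAM_LPS call of Abcg1 was lost without replicate 2 and its SeV_cGAMP call with thinned libraries, and the Abca1 call without replicate 2 or 3, with thinned libraries and without the filter on low counts.

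Apoe, lowered by most single ligands, fell less than additively in LPS_Zymosan (0.75), PAM_LPS (0.68), LPS_CpGB (0.67), Zymosan_CpGB (0.60), PAM_Zymosan (0.51), PAM_CpGB (0.48) and LPS_cGAMP (0.47). The Apoe terms were above 0 in all 21 pairs, at 0.20 to 0.75, and Apoe was highest in Ctrl. Scd2, the desaturase, fell less than additively in SeV_cGAMP (2.82) and PAM_CpGB (2.12). It held 13 counts in total after SeV, 8 after cGAMP and 13 after CpGB. All calls of Apoe and Scd2 here were lost without the filter on low counts, and each was lost without at least 1 replicate number.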

How the results depend on the processing

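Called members kept their direction for single ligands, matched backgrounds, interactions and pairs above both in the alternatives that gave a value. With every library thinned to the lowest total, calls fell from 34 to 17 for single ligands, 133 to 66 for pairs, 256 to 124 for triplets, 40 to 17 for matched backgrounds, 33 to 14 for interactions, 4 to 1 for pairs above both singles and 123 to 39 between singles. Without the filter on low counts they were 20 for single ligands, 93 for pairs, 151 for triplets, 45 for matched backgrounds, 21 for interactions, 5 for pairs above or below both singles and 93 between singles. For matched backgrounds, a log2 difference of at least 1 left 13 calls and no fold threshold gave 84. Leaving out replicate 1, 2 or 3 of all groups gave 22 to 27 calls for single ligands, 92 to 99 for pairs, 167 to 185 for triplets, 37 to 41 for matched backgrounds, 15 to 28 for interactions, 2 to 4 for pairs above both and 75 to 89 between singles. Leaving out 1 Ctrl library gave 25 to 27 for single ligands. In the thinned libraries 66 of the 111 named calls still had a test. The 12 matched-background calls with a test there all remained, and the others had too few counts to be tested. Beyond the fewer counts or libraries, the cause of the other losses was not tested. The log2 ratio of synthesis to efflux after LPS turned from 0.53 to -0.15 as a mean of member log2 CPM. With DESeq2, 28 of the 34 single-ligand calls remained, and with RLE scaling 106 of 111 named calls did. Same-numbered libraries did not deviate together (mean r of 0.00828), and the numbers were not used as pairs. With few counts per gene, such an r cannot exclude a shared batch. Totals rose with replicate number in some groups, such as LPS (133379, 184640 and 229979 UMIs), and not in others, such as PAM (144331, 191207 and 171573). The fit with the replicate block gave 35 calls for single ligands, 39 for matched backgrounds, 34 for interactions, 135 for pairs, 260 for triplets, 6 for pairs above or below both and 124 between singles, and put Srebf1 with LPS just under the fold set. With 1 to 17 counts of many members in Ctrl, changes of synthesis genes after single ligands were often not detectable at this depth.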
